A study of Mus musculus with 6 samples.

Results

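The 7 genes described here, Cdkn1a, Cdkn1b, Cdkn1c, Cdkn2a, Cdkn2b, Cdkn2c and Cdkn2d, encode the cyclin-dependent kinase (CDK) inhibitors of the mouse. They were taken by symbol from a table of 24421 genes, and 6 of the 7 had enough reads to be among the 13977 genes tested. RNA was sequenced from kidney cortex of 2 groups of mice, with 3 libraries each. The first, titled PT-I_Ppo-1 and called PT-I-PpoI here, expresses the endonuclease I-PpoI, a homing enzyme that makes double-strand breaks at its recognition sequence, in proximal tubular epithelial cells. The second is titled Wild-Type. The labels give no strain, age, sex, time of expression, or promoter or Cre line behind the transgene, and do not state whether libraries came from different mice. The p-values therefore cover only the spread between libraries, which may be partly technical. The comparison asks how the genes that hold the cell cycle differ between cortex whose proximal tubule cells carry this enzyme and wild type cortex.

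CDKs drive the cell cycle when bound to cyclins, and CDK inhibitors stop them. The INK4 proteins p16 (from Cdkn2a), p15 (Cdkn2b), p18 (Cdkn2c) and p19 (Cdkn2d) bind CDK4 and CDK6 and keep D cyclins from activating them, so that the retinoblastoma protein stays active and E2F factors stay silent. The CIP/KIP proteins p21 (Cdkn1a), p27 (Cdkn1b) and p57 (Cdkn1c) bind cyclin-CDK complexes more broadly, CDK2 complexes above all. Cdkn1a is the best-known target of p53 after DNA breaks, and p16, p15 and p21 are widely used as markers of senescence, a lasting arrest of the cell cycle that in the kidney has been tied to ageing and to injured tubules. Cdkn2a also encodes ARF, a p53 activator, from a first exon and a start site of its own.

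Upstream sequences of some start sites are shown first. These are the 3 starts of the Cdkn2b and Cdkn2a locus and the p53-site start of Cdkn1a. Cdkn2b had reads and Cdkn2a almost none, counted per gene and not per start. Each sequence is the 250 bases before a RefSeq start (GRCm38.p6, the mm10 build), 5′ to 3′ on the strand of the gene. Capitals mark every motif match. Start sites with a sequence were found for 6 of the 7 genes, all but Cdkn1c.
Cdkn2b, chr4:89311033-89311282, minus strand: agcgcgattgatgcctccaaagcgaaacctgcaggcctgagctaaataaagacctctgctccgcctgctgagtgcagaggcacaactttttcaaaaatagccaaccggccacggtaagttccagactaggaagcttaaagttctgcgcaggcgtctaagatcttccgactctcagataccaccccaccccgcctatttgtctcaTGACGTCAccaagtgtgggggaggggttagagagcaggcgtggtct
Cdkn2a, ARF start, chr4:89294620-89294869, minus strand: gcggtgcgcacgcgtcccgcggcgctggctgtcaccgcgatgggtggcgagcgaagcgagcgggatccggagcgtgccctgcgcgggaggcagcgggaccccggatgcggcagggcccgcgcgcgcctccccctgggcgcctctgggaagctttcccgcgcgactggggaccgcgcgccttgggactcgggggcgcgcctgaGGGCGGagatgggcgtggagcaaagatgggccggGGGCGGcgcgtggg
Cdkn2a, p16 start, chr4:89282193-89282442, minus strand: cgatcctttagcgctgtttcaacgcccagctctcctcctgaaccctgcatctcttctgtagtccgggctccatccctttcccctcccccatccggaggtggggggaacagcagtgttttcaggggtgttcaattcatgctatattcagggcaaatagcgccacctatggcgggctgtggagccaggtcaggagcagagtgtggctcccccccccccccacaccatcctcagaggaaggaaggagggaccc
Cdkn1a, upstream start, chr17:29090729-29090978, plus strand: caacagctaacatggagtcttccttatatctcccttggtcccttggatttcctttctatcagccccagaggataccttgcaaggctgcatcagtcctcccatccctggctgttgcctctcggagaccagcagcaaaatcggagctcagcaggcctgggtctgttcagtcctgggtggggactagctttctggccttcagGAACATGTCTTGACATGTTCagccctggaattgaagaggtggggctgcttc

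Motifs were searched on both strands and did not overlap one another in these windows. The upstream Cdkn1a window held the p53 site, a pair of p53 consensus decamers with no spacer and at most 1 mismatch, beginning 51 bases before the start. The window of the second Cdkn1a start, not shown, held no p53 site and 2 GC boxes. Of 32817 such windows over all genes 0.0762% held that site. The Cdkn2b window held the cyclic AMP response element TGACGTCA, 46 bases before the start, as did 1.55% of all windows. This motif was chosen after the sequence was seen. The GC box GGGCGG stood at 2 places in the window of the ARF start and was absent from those of the p16 and Cdkn2b starts, while 32.7% of all windows held at least 1. Cdkn2c (first start) and Cdkn2d had 3 each, and 8.47% of windows had at least 3. These matches describe letters, not binding.

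Libraries held 13.6 to 20.9 M read pairs counted to genes. The first principal component, with 43.1% of the variance, separated libraries by the spelling of their deposited names, called the name form here. The final number has a hyphen in PT-I-PpoI replicate 3 and in wild type replicates 2 and 3, and none in the others. Along this component the groups also differed inside each form, with PT-I-PpoI lower. PT-I-PpoI replicates 1 and 2 stood at -23.1 and -30.2, and wild type replicate 1 at -0.539. PT-I-PpoI replicate 3 stood at 11.8, below wild type replicates 2 and 3 at 20.4 and 21.5. As the forms are unevenly spread over the groups, the component was not assigned to the form alone. No label names the form a batch. For the 6 tested members and some other genes, values within each form are therefore given beside pooled ones. Libraries without a hyphen come first, where wild type replicate 1 is the lone wild type library. Among hyphenated libraries, PT-I-PpoI replicate 3 is the lone PT-I-PpoI library. Of the markers of the labelled tissue, the proximal tubule transporter Slc34a1 was at 3630 to 6500 CPM (counts per M read pairs of the library) in PT-I-PpoI and at 5410 to 7980 CPM in wild type. The summed CPM of marker lists did not overlap between groups for the thick ascending limb (12 genes, 8110 to 8370 in PT-I-PpoI against 5810 to 6590 in wild type), the collecting duct (17 genes, 1430 to 1490 against 1040 to 1130), the medulla (8 genes, of which Akr1b3 was at 0, 1400 to 1430 against 1030 to 1270) and the endothelium (12 genes, 986 to 1030 against 817 to 924). The sums of the proximal tubule lists leaned the other way with overlapping groups, at 14700 to 18900 against 17500 to 21100 for the convoluted part (13 of 14 genes below 0, median log2 fold change -0.23) and 3540 to 5110 against 4560 to 6410 for the straight part (9 of 10 below 0, median -0.42). By edgeR 0 genes of either list passed, and DESeq2 called 0 and 4, where it called 1.34% of all the genes it tested. Before adjustment 4 and 5 were lower at p under 0.05, as were 5.61% of all genes. Of the lists with higher sums, edgeR called 2 thick ascending limb, 2 collecting duct, 1 medulla and 0 endothelium genes, beside 19 over all genes. DESeq2 called 5, 5, 2 and 1 genes of these lists, in the same order. Before adjustment 8, 9, 4 and 6 of their 12, 17, 6 and 12 tested genes were higher at p under 0.05, as were 6.42% of all genes. Among the single markers of these lists, Slc14a2 (medulla) was at 83.8 to 103 CPM in PT-I-PpoI against 6.07 to 28.6 CPM in wild type. Slc12a1 (thick ascending limb) was at 1010 to 1060 against 606 to 704 CPM, and Aqp2 (collecting duct) at 249 to 407 against 176 to 210 CPM. Their adjusted p were 0.105, 0.0641 and 0.177 by edgeR, and 0.0222, 6.99e-08 and 0.000655 by DESeq2. In whole tissue, more cells of a type and more RNA per cell cannot be told apart.

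Among the INK4 genes, Cdkn2b was 3.7 times as high in PT-I-PpoI cortex as in wild type cortex, from a low level, whereas its neighbour Cdkn2a was nearly unread in both groups. Cdkn2c and Cdkn2d lay within the spread of the libraries. By edgeR's quasi-likelihood test with adjustment over all 13977 genes, 0 of the 6 tested CDK inhibitors passed at 0.05, beside a background of 0.136% of all genes called. Before adjustment edgeR had 1 of the 6 at p under 0.05, Cdkn2b on the higher side, where 12% of all genes stood (6.42% higher and 5.61% lower), and DESeq2 called Cdkn2b alone, against 1.34% of the genes it tested (0.917% higher).

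**Figure D1:**
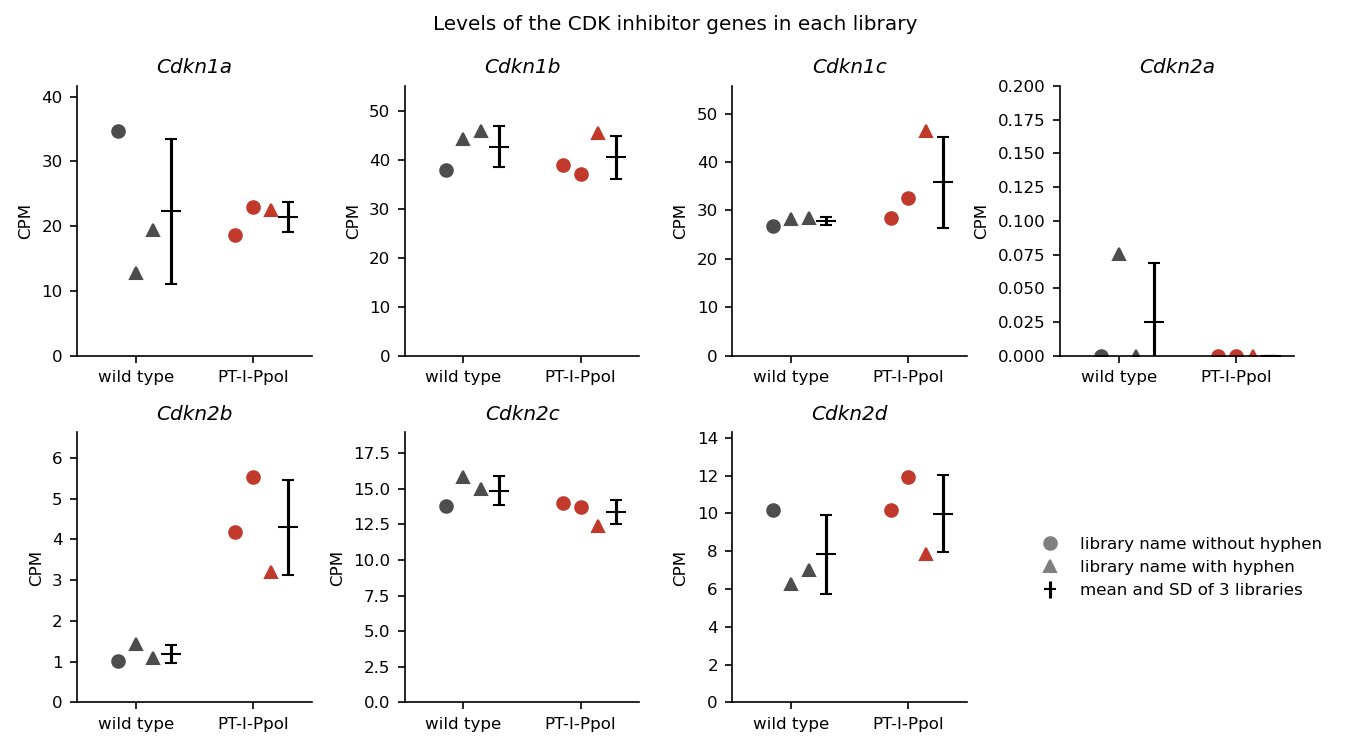
CPM of each CDK inhibitor gene (vertical axes, from 0, each with its own scale) in the 3 wild type (grey) and 3 PT-I-PpoI (red) libraries, with the mean and SD of each group as black bars. Circles are libraries named without a hyphen and triangles those named with one. Cdkn2b lies between 3.19 and 5.52 CPM in the PT-I-PpoI libraries and between 1.01 and 1.44 CPM in wild type, while the groups overlap for the other genes.

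Cdkn2b (chromosome 4, 89306289 to 89311032, minus strand, mm10 as for all positions) encodes p15, the INK4 inhibitor known for its induction by TGF-beta. It was counted in 79, 100 and 45 read pairs in PT-I-PpoI replicates 1, 2 and 3, and in 21, 19 and 22 in wild type replicates 1, 2 and 3. As CPM these were 4.18, 5.52 and 3.19 against 1.01, 1.44 and 1.10. Every PT-I-PpoI library was above every wild type library, as for 9.23% of all tested genes in this direction.

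With so few reads, counting alone leaves a wide margin around each Cdkn2b level. Exact 95% Poisson intervals, which cover counting error only, ran from 2.33 to 4.27 CPM in the lowest PT-I-PpoI library and from 0.866 to 2.25 CPM in the highest wild type library. These 2 intervals do not overlap. The means were 4.30 ± 1.17 CPM and 1.18 ± 0.23 CPM (SD, n = 3 each).

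The log2 fold change of Cdkn2b was 1.89 ± 0.27 (SE, 95% interval 1.27 to 2.51), and its p ranked 22nd among all tested genes. The adjusted p was 0.0561 by edgeR, just short of the threshold, and 3.43e-05 by DESeq2. With the form of the library name as a term, edgeR gave 1.80 ± 0.29 and an adjusted p of 0.0452, where 0.458% of all genes were called. The difference was 2.13 within libraries named without a hyphen and 1.27 within hyphenated ones, on the log2 CPM scale with a prior count of 2. The thick ascending limb, collecting duct, medulla and endothelium marker sums moved with the groups as Cdkn2b did, and those of the proximal tubule leaned against it. Their part in its level was not tested.

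**Figure D2:**
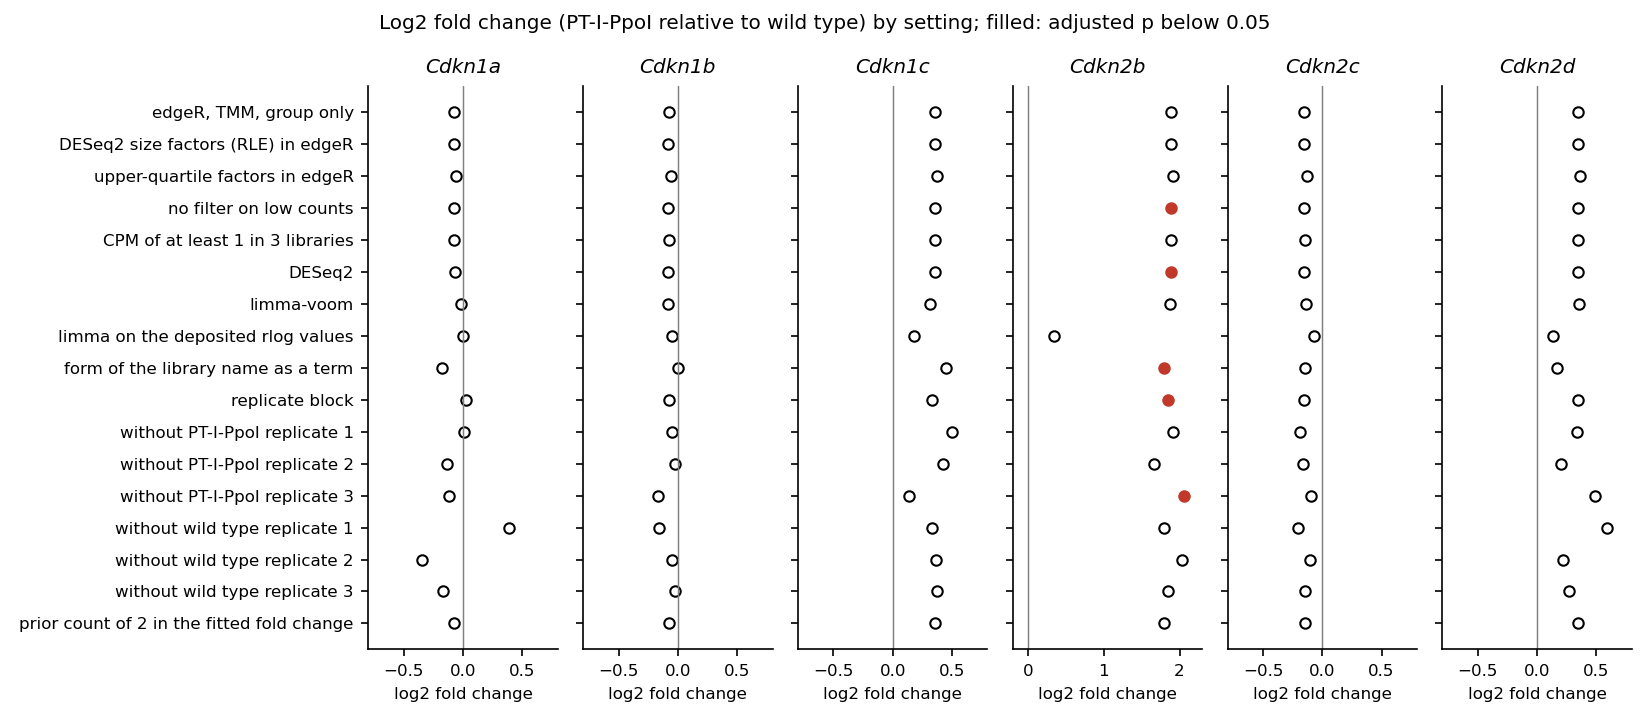
Log2 fold change of the 6 tested CDK inhibitor genes (horizontal axes; that of Cdkn2b has a wider scale) under each analysis setting (rows). Filled points have an adjusted p below 0.05: only Cdkn2b has any, 5 of its 16 alternatives, and its fold changes run from 0.34 on the deposited rlog values to 2.06 without PT-I-PpoI replicate 3.

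Cdkn2a (chromosome 4, 89274473 to 89294619, minus strand), the source of p16 and ARF, had 0 read pairs in all 3 PT-I-PpoI libraries and in wild type replicates 1 and 3, and 1 read pair in wild type replicate 2. Its transcripts share exons, and the table counts them as 1 gene. Over the 49.9 M read pairs of the PT-I-PpoI group, a count of 0 allows a level of up to 0.0587 CPM (3 counts over the group), so a change below this level was not detectable. No fold change is given, since both groups were under 3 counts, and an exact two-sided permutation test over libraries gave p = 1, where 3 against 3 cannot go below 0.1. The genes' coding exons are alike in sequence, and the counting set no option for reads that map to several places, so reads shared with Cdkn2b would be missing from both.

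The tested genes flanking Cdkn2b did not pass. The nearest tested gene on one side, past Cdkn2a, was Mtap, an enzyme of methionine salvage whose end lies 125 kb away. Mtap was at 32.9 ± 0.22 CPM in the PT-I-PpoI libraries and 33.4 ± 1.37 CPM in wild type (log2 fold change -0.03 ± 0.07, adjusted p = 0.908 by edgeR). On the other side the nearest was Tusc1, 4020 kb away, at 5.97 ± 1.46 against 7.06 ± 0.31 CPM (log2 fold change -0.23 ± 0.19, adjusted p = 0.624 by edgeR). Cdkn2a itself begins 11.7 kb from the end of Cdkn2b.

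Cdkn2c (chromosome 4, 109660876 to 109666756), which encodes p18, was at 14.0, 13.7 and 12.4 CPM in the PT-I-PpoI libraries and at 13.8, 15.8 and 15 CPM in wild type. The groups overlapped by 1 library, wild type replicate 1. The log2 fold change was -0.15 ± 0.11 (95% interval -0.40 to 0.10, adjusted p = 0.581 by edgeR), at 0.00 and -0.31 within the name forms.

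Cdkn2d (chromosome 9, 21288464 to 21291209), which encodes the INK4 protein p19, was at 10.2, 11.9 and 7.87 CPM in the PT-I-PpoI libraries and at 10.2, 6.28 and 7.02 CPM in wild type. Its order followed the name form, with 10.2 to 11.9 CPM without a hyphen and 6.28 to 7.87 CPM with one. Between the groups its log2 fold change was 0.35 ± 0.21 (95% interval -0.14 to 0.83, adjusted p = 0.529 by edgeR), or 0.17 ± 0.13 with the form as a term. Within the forms the difference was 0.11 and 0.24. Its nearest tested neighbour, Kri1, 0.495 kb away, was at 15.2 ± 1.88 against 14 ± 0.69 CPM with overlapping groups (log2 fold change 0.11 ± 0.12, adjusted p = 0.72 by edgeR). On the other side Ap1m2, an adaptor subunit of epithelial protein sorting whose end lies 4.25 kb away, was at 29.7 ± 3.99 against 20.7 ± 2.67 CPM and did not overlap between groups (log2 fold change 0.52 ± 0.13, adjusted p = 0.213 by edgeR).

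None of the CIP/KIP genes passed the test. Cdkn1a (chromosome 17, 29090986 to 29100722), the p53 target p21, was at 18.7, 23.0 and 22.5 CPM in PT-I-PpoI replicates 1, 2 and 3. In wild type it was at 34.7, 12.8 and 19.4 CPM, so that the highest and the lowest of the 6 libraries were both wild type. The means were 21.4 ± 2.34 and 22.3 ± 11.2 CPM (SD, n = 3 each), and the log2 fold change was -0.08 ± 0.30 with a 95% interval of -0.76 to 0.61 (adjusted p = 0.933 by edgeR). In the table Cdkn1a overlaps the untested predicted genes Gm27740 and Gm27775, and the counting set no option for strand or for reads that overlap several genes.

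The sign of the Cdkn1a difference turned when wild type replicate 1 or PT-I-PpoI replicate 1 was left out. Without the former the log2 fold change was 0.39 ± 0.19 (adjusted p = 0.363 by edgeR), without the latter it was 0.0125, and without wild type replicate 2 it was -0.34. Within libraries named without a hyphen it was -0.74, and within those with one 0.51. Wild type replicate 1 also stood apart from the other libraries along the second principal component, at 29.2 against 0.134 or less.

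Cdkn1b (chromosome 6, 134920401 to 134925525), which encodes p27, an inhibitor common in resting cells, was at 38.9, 37.2 and 45.4 CPM in the PT-I-PpoI libraries and at 37.9, 44.3 and 45.9 CPM in wild type. As for Cdkn2d, its levels followed the name form, at 37.2 to 38.9 CPM without a hyphen and 44.3 to 45.9 CPM with one. The group difference on the log2 scale was -0.08 ± 0.11 (95% interval -0.32 to 0.17, adjusted p = 0.78 by edgeR), and 0.01 ± 0.07 with the form as a term. Within the forms it was 0.00 and 0.01.

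Cdkn1c (chromosome 7, 143458339 to 143461050), the imprinted gene for p57, which marks mature podocytes in the kidney, was at 28.4, 32.6 and 46.4 CPM in the PT-I-PpoI libraries and at 26.9, 28.2 and 28.4 CPM in wild type. PT-I-PpoI replicate 3 stood above the other 5 libraries. The log2 fold change was 0.36 ± 0.16 (95% interval -0.02 to 0.73, adjusted p = 0.426 by edgeR), or 0.13 without that library. With the name form as a term it was 0.45 ± 0.12 (adjusted p = 0.176 by edgeR), and within the forms 0.18 and 0.71. The summed level of 13 podocyte markers, none of them at 0, ran from 573 to 692 CPM in the PT-I-PpoI libraries and from 547 to 616 CPM in wild type, and PT-I-PpoI replicate 3 had the highest. The part of the podocyte sum in the Cdkn1c level was not tested. The nearest tested genes of this imprinted cluster, Kcnq1 and Slc22a18, had log2 fold changes of 0.11 ± 0.13 and -0.35 ± 0.16 (adjusted p = 0.737 and 0.425 by edgeR).

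The dependence of Cdkn1b and Cdkn2d on the name form was tested after their values were seen, in edgeR with the group as the other term. Cdkn2d was lower with a hyphen (log2 fold change -0.55 ± 0.13, adjusted p = 0.0676 by edgeR), and Cdkn1b higher by 0.25 ± 0.07 (adjusted p = 0.105 by edgeR). None of the 6 genes passed, where 3.06% of all genes did. The 2 forms did not overlap for 2 of the 6 genes and for 25.5% of all genes.

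Per exon length, the CIP/KIP genes were the most abundant inhibitors by group mean, in both groups. On the RPKM scale (CPM divided by the gene's exon length in kilobases), wild type cortex had Cdkn1b at 17.8 ± 1.75, Cdkn1c at 14.3 ± 0.41 and Cdkn1a at 11 ± 5.54, followed by Cdkn2c at 6.61 ± 0.45 and Cdkn2d at 6.16 ± 1.62 (SD, n = 3). Cdkn2b came next at 0.85 ± 0.16, and Cdkn2a last. In wild type, the libraries of neighbours in this order overlapped for Cdkn1c and Cdkn1a, Cdkn1a and Cdkn2c, and Cdkn2c and Cdkn2d, whereas those of Cdkn1b and Cdkn1c, Cdkn2d and Cdkn2b, and Cdkn2b and Cdkn2a did not. Cdkn1a, lower in this order, was above Cdkn1b in wild type replicate 1, at 17.1 against 15.8 RPKM. In wild type replicate 2 Cdkn1a was below Cdkn2c, at 6.32 against 7.02 RPKM.

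In PT-I-PpoI cortex the order of the RPKM levels was Cdkn1c (18.4 ± 4.86), Cdkn1b (16.8 ± 1.79), Cdkn1a (10.5 ± 1.15), Cdkn2d (7.86 ± 1.60), Cdkn2c (5.93 ± 0.38), Cdkn2b (3.08 ± 0.84) and Cdkn2a (0 in every library). Cdkn1c overlapped Cdkn1b, Cdkn1a overlapped Cdkn2d, and Cdkn2d overlapped Cdkn2c. Cdkn2b made up 17.4%, 20.4% and 16.4% of the summed INK4 RPKM in PT-I-PpoI replicates 1, 2 and 3. In the wild type libraries it made up 4.89%, 7.9% and 6.05%.

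**Figure D3:**
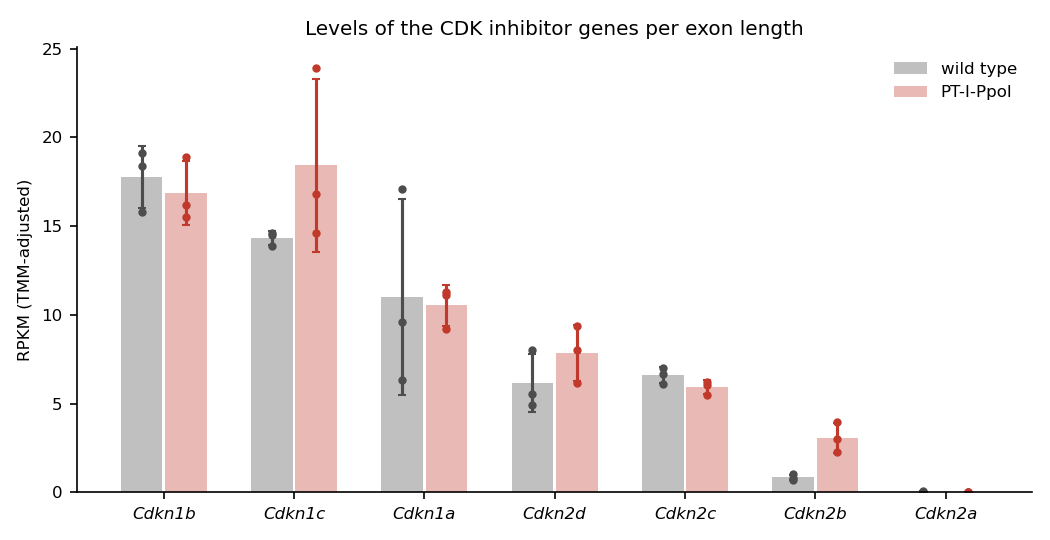
RPKM of each CDK inhibitor gene (vertical axis from 0), ordered by the mean over all 6 libraries, in wild type (grey) and PT-I-PpoI (red). Bars are group means, lines the SD and points the 3 libraries: Cdkn2b stays the second lowest gene in both groups, at 0.85 and 3.08 RPKM.

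The kinases, cyclins and targets on which the inhibitors act did not pass the test in either direction. Over the 11 other lists of this pathway, 0 of 190 tested genes were called by edgeR (before adjustment 8 were above and 7 below wild type at p under 0.05, 7.89% against the background of 12%). DESeq2, limma-voom, limma on the rlog values, and edgeR with a term for the name form likewise called 0. Without PT-I-PpoI replicate 3, 617 of all 13977 tested genes passed edgeR's test, against 19 with all 6 libraries. Among them were 7 of the 190. These were Myc (log2 fold change 1.05), Id1 (1.29) and Ephx1 (0.45) above 0, and Bmi1 (-0.56), Igfbp4 (-0.73), Ccng1 (-0.49) and Trp53inp1 (-0.95) below. With so many calls over all genes, the 7 are not read as a result about these lists. The values below use all 6 libraries.

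Of the INK4 partners, the median log2 fold change over 5 tested genes was 0.00, as over all tested genes. Cdk4 was at 104 ± 9.77 against 101 ± 1.81 CPM, and Cdk6 at 1.81 ± 0.60 against 2.18 ± 0.47 CPM. Cyclin D1 (Ccnd1) ranged widely within both groups, at 154 to 288 CPM in the PT-I-PpoI libraries and 163 to 269 CPM in wild type. For 6 tested CIP/KIP partners the median was -0.04. Cdk2 was at 14.6 ± 1.34 against 12.8 ± 0.70 CPM, Cdk1 at 1.22 ± 0.23 against 1.16 ± 0.12 CPM, and cyclin A2 (Ccna2) at 1.40 ± 0.34 against 1.73 ± 0.40 CPM, all with overlapping groups.

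The retinoblastoma gene Rb1 was at 28.1 ± 7.06 against 31.9 ± 3.35 CPM (log2 fold change -0.19 ± 0.17). Over 16 tested genes of the RB, E2F and DREAM list, which holds E2F factors beside their repressors, the median was -0.14, with 4 above 0 and 12 below. The 25 tested E2F target and proliferation genes had a median of 0.06, from -0.33 (thymidine kinase, Tk1) to 0.36. Mki67, the gene for the proliferation antigen Ki-67, was at 1.60 ± 0.54 against 1.58 ± 0.49 CPM.

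**Figure D4:**
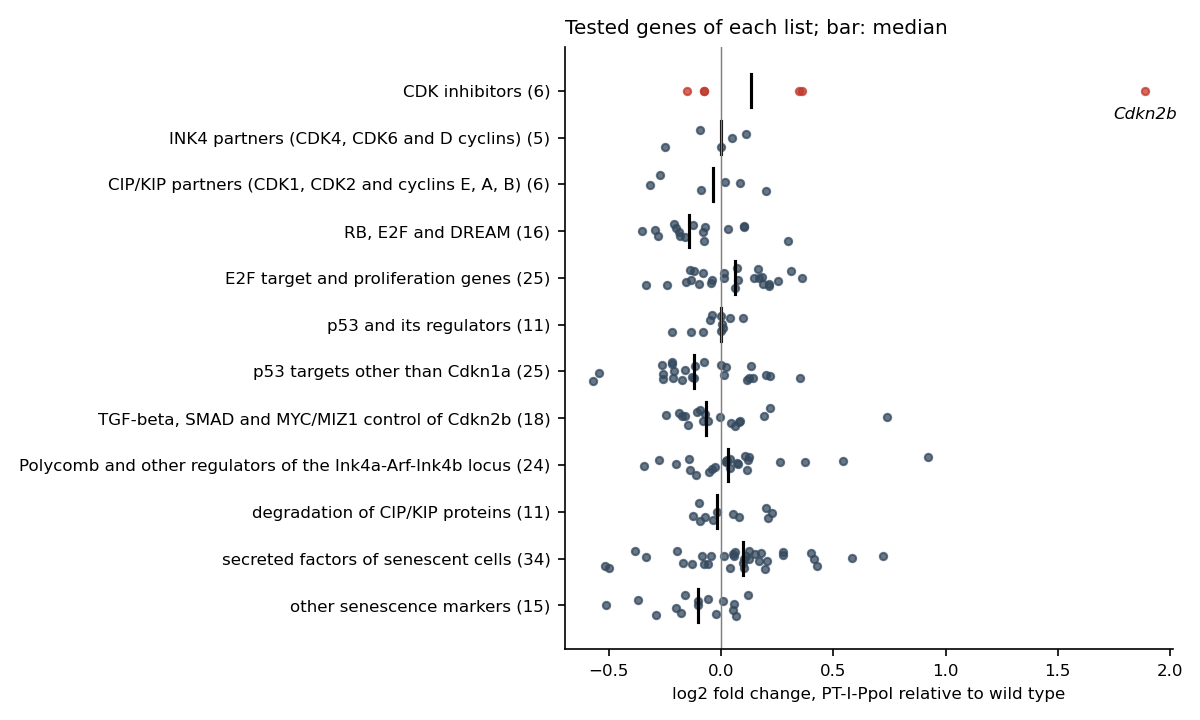
Log2 fold change of PT-I-PpoI relative to wild type (horizontal axis) for the tested genes of each list (rows, with the number of genes in parentheses). Points are genes and black bars list medians: Cdkn2b, at 1.89, lies to the right of every other point, and the medians of the other 11 lists lie between -0.14 and 0.10.

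Among the genes that control the inhibitors, p53 itself (Trp53) was at 36.6 ± 6.24 against 35.7 ± 4.86 CPM, and Mdm2, its ubiquitin ligase and target, at 47.7 ± 1.99 against 47.7 ± 1.13 CPM. The 25 tested p53 targets beside Cdkn1a had a median of -0.12 on the log2 scale. Before adjustment 2 were above and 2 below wild type at p under 0.05, as were 6.42% and 5.61% of all genes. The cell death gene Bax was at 49.6 ± 2.14 against 42.7 ± 0.62 CPM (adjusted p = 0.329 by edgeR), and Sesn2, a stress-induced regulator of growth, at 50.1 ± 0.45 against 74.2 ± 25.1 CPM (adjusted p = 0.352 by edgeR). For 18 genes of the TGF-beta, SMAD and MYC control of Cdkn2b the median was -0.07. Tgfb1 was at 17.4 ± 1.54 against 15.3 ± 1.07 CPM, and Smad3, a transducer of its signal, at 39.1 ± 3.87 against 39.2 ± 2.88 CPM. Smad2 did not overlap between groups, at 34.0 ± 2.02 against 38.7 ± 1.74 CPM (adjusted p = 0.414 by edgeR). Myc, whose protein represses Cdkn2b, was at 13.4 ± 6.02 against 8.15 ± 1.86 CPM, with differences of 0.82 and -0.14 within the name forms.

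For 24 Polycomb and other regulators of the Cdkn2a and Cdkn2b locus the median log2 fold change was 0.03. Before adjustment 2 lay above and 2 below wild type at p under 0.05, as did 6.42% and 5.61% of all genes. Kdm2b, a histone demethylase that recruits Polycomb, was at 21.1 ± 1.71 against 16.3 ± 1.36 CPM (log2 fold change 0.37 ± 0.11, adjusted p = 0.268 by edgeR). The Polycomb subunits Rnf2 (21.4 ± 2.39 against 25.9 ± 0.48 CPM) and Suz12 (34.1 ± 2.63 against 39.2 ± 2.13 CPM) did not overlap between groups and lay lower in PT-I-PpoI, as did 7.74% of all genes. Bmi1, the best-known repressor of the locus, was at 34.0 ± 9.08 against 43.0 ± 1.70 CPM (adjusted p = 0.444 by edgeR), and the methyltransferase Ezh2 at 6.17 ± 1.34 against 5.23 ± 1.21 CPM. Id1, an inhibitor of differentiation factors that represses Cdkn2a, was at 32.5 to 120 CPM in the PT-I-PpoI libraries and 33.8 to 52.3 CPM in wild type, with differences of 1.58 and -0.49 within the name forms. Among 11 genes that degrade CIP/KIP proteins, with a median of -0.02, the p27 receptor Skp2 was at 2.55 ± 0.105 against 2.24 ± 0.43 CPM.

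For secreted factors of senescent cells, 34 of 50 genes were tested and the median log2 fold change was 0.10. Before adjustment 4 stood above and 1 below wild type at p under 0.05, as did 6.42% and 5.61% of all genes. Plaur, the urokinase receptor, was at 7.81 ± 0.86 against 4.78 ± 0.89 CPM and did not overlap between groups (log2 fold change 0.72 ± 0.18, adjusted p = 0.201 by edgeR, and 0.73 and 0.57 within the name forms). Timp2, an inhibitor of matrix metalloproteinases, was at 66.0 ± 6.31 against 49.0 ± 7.44 CPM (adjusted p = 0.254 by edgeR). Igfbp4, a binder of insulin-like growth factors, was at 808 ± 207 against 1144 ± 151 CPM. Il6 had no reads in any library, and Gdf15, a stress cytokine, was at 12.5 ± 2.48 against 10.3 ± 2.0 CPM.

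Over 15 tested genes of other senescence markers the median log2 fold change was -0.10. Lamin B1 (Lmnb1), whose loss marks senescent cells, was at 4.29 ± 1.32 against 6.14 ± 0.515 CPM with overlapping groups (log2 fold change -0.51 ± 0.23, adjusted p = 0.414 by edgeR). Within the name forms the difference was -0.57 and -0.55, each with a lone library in a group. Glb1, the lysosomal beta-galactosidase behind the usual senescence stain, was at 167 ± 37.8 against 204 ± 33.9 CPM (adjusted p = 0.515 by edgeR). H2afx, the histone that is phosphorylated at DNA breaks, was at 15.3 ± 0.62 against 14.1 ± 0.88 CPM. Hmga2 had too few reads to be tested.

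The genes whose profile over the 6 libraries was most like that of Cdkn2b, by Pearson correlation of log2 CPM over 12591 genes, were Tmem63a (r = 0.9996), Rgl3 (0.9938) and Sh2d4a (0.9935). In all 121 genes exceeded 0.95 over these 6 libraries. For Cdkn1b 123 did, for Cdkn2d 112, for Cdkn1a 21, for Cdkn1c 18 and for Cdkn2c 13. The named genes were picked for the highest correlation, so their group differences follow from that choice and are no separate result. Of the 3 named, Tmem63a was at 23.5 ± 0.92 against 19.6 ± 0.48 CPM (log2 fold change 0.26 ± 0.09, adjusted p = 0.321 by edgeR), Rgl3 at 80.4 ± 3.87 against 66.4 ± 1.84 CPM (0.28 ± 0.07, adjusted p = 0.222 by edgeR) and Sh2d4a at 27.2 ± 1.94 against 19.7 ± 0.55 CPM (0.47 ± 0.09, adjusted p = 0.141 by edgeR). Cdkn1a was most like Rps6ka5 (r = 0.9948), and Cdkn1b most like the nuclear RNA Malat1 (r = 0.9969), which was at 478 ± 335 against 679 ± 354 CPM. Cdkn2d was most like Mif4gd (r = 0.9938), Cdkn2c most like Rab3ip (r = 0.9910) and Cdkn1c most like Rtfdc1 (r = 0.9777). Between the members themselves the strongest relation was that of Cdkn1b and Cdkn2d (r = -0.919), which share the contrast between name forms, and Cdkn2b correlated with each of the other 5 at between -0.513 and 0.578.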

How the data were processed

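The authors deposited raw counts of read pairs for 24421 genes in 6 libraries of kidney cortex RNA. Alignment used HISAT2 (per the labels' protocols), and exon counting used featureCounts 1.5.2 against a UCSC mm10 annotation, per the file headers (the labels' protocols name mm9). The header sets no strand option. The gene length column of the same table, used as deposited, gave RPKM. The deposited log2 values (rlog, 17918 genes; the submitters' notes on processing name DESeq2) served only an alternative test.

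With R 4.3.3 and edgeR 4.0.16, low genes were removed by filterByExpr (minimum count 10), and counts were scaled by TMM and compared between groups by the quasi-likelihood test, two-sided, Benjamini-Hochberg adjusted over 13977 genes, threshold 0.05. The procedure was also run on simulated counts with set fold changes. Those counts had no difference between name forms and no outlying library, so that run does not speak to either. CPM refer to TMM-adjusted totals. Alternatives used other size factors, filters and a larger prior count, DESeq2 1.42.0, limma 3.58.1, the name form or replicate number as a term, and each library left out. Members and lists were chosen with earlier results of these data known. Named genes were the members, up to 2 genes per direction and list by smallest p, fixed pathway genes, chromosomal neighbours and the 3 most alike genes per member, of which the text gives a selection. Some genes are not reported here. Upstream sequences are RefSeq's (GRCm38.p6).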

Additional observations from a re-analysis of the deposited data

How the results depend on the processing

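Cdkn2b had a fold change above 0 in all 16 alternatives (log2 0.34 to 2.06, adjusted p 3.43e-05 to 0.391). It passed without a filter on low counts (1.89, adjusted p = 0.0224 by edgeR), by DESeq2 (1.89, adjusted p = 3.43e-05), with the form of the library name as a term (1.80, adjusted p = 0.0452 by edgeR), with the replicate block (1.84, adjusted p = 0.0421 by edgeR) and without PT-I-PpoI replicate 3 (2.06, adjusted p = 0.0117 by edgeR), and in no other. Without 1 library it ran from 1.67 to 2.06. In these 5 settings 1 CDK inhibitor was called in place of 0, and over all pathway lists 1 gene, or 8 without PT-I-PpoI replicate 3 (0 to 8 over the libraries left out). The rlog value, 0.34, is on a scale that shrinks low counts.

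Cdkn1a changed sign on the rlog values (0.0028), with the replicate block (0.0225) and when 1 library was left out (-0.34 to 0.39), and Cdkn1b with the name form as a term (0.0053). Neither passed in any of the 16. Cdkn1c, Cdkn2c and Cdkn2d kept their sign and did not pass in any.

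Over all genes 19 were called, against 47 with no filter on low counts, 187 by DESeq2, 1 on the rlog values, 64 with the name form as a term, 40 with the replicate block, and 0 to 617 with 1 library left out (617 when PT-I-PpoI replicate 3 was left out, 9 for wild type replicate 2, 2 for wild type replicate 1 and 0 for each of the other 3). Same-numbered libraries correlated in their deviations at 0.219, -0.128 and 0.163, so the numbers were not taken as pairs, and the causes of these changes were not tested. Cdkn2a had too few reads for its fold change to be read in any setting. Cdkn2b rests on 19 to 100 read pairs per library, which limits the precision of its level.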
